A study of Danio rerio with 20 samples.

Results

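The 10 genes described here are listed with the making and breakdown of the polyamines putrescine, spermidine and spermine. They were taken from 32105 genes in the count table. They are the synthesis genes ODC1, AMD1, SRM and SMS, 3 acetyltransferase genes named SAT1, the related sat2a.2 and sat2b, and the oxidase gene SMOX. They were chosen by name, with the case of letters ignored and the paralog suffix dropped where the full name was absent. The names sat1a.1, sat1a.2 and sat1b matched only in that second way, to 3 Ensembl genes that share the symbol SAT1. The tables do not say which identifier is which paralog, so each SAT1 gene is given with its identifier. The near absence of sat2a.2 in most 3-year fish was already known when the set was chosen. Its values by age are therefore given as a description without a test, and the age comparisons count the other 9 genes. Exercise comparisons that include 3-year fish keep all 10 genes, and the values of sat2a.2 in them are a description as well. All 10 genes passed the filter on low counts.

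Polyamines are small, positively charged molecules that bind nucleic acids and that growing and secreting cells hold in large amounts. Ornithine decarboxylase (ODC1) makes putrescine from ornithine and is the rate-limiting step in mammals. AMD1 makes decarboxylated S-adenosylmethionine, which spermidine synthase (SRM) and spermine synthase (SMS) use to build spermidine and spermine. Breakdown begins with spermidine/spermine acetyltransferase (SAT1), which marks polyamines for export or oxidation, or with spermine oxidase (SMOX), which acts on spermine directly.

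Liver RNA was sequenced from 20 male zebrafish of the strain AB JxTu, with 5 samples in each of 4 groups. The groups were fish aged 3 years that exercised in a swim tunnel, fish aged 3 years with no perturbation (resting), fish aged 1 year that exercised, and resting fish aged 1 year. The labels give no length or intensity of exercise and do not say whether samples came from separate fish. Each is treated here as a fish of its own, and the spread that the p-values rest on may in part be technical. Replicate numbers follow the order of deposition and link no fish across groups.

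Total counts were between 33046127 and 49579666 per library. Hepatocyte markers (15 genes) summed to between 120000 and 296000 plain CPM (counts scaled to the library total alone). Reads of other organs were present in part of the libraries. FABP2, which binds fatty acids in the gut lining, was between 283 and 3480 plain CPM in 7 libraries and at most 5.73 in the other 13. These 7 were exercised 3-year replicates 1, 2 and 5, resting 3-year replicate 3, exercised 1-year replicates 3 and 4, and resting 1-year replicate 5. The summed level of 19 exocrine pancreas markers ranged from 54.9 to 76900 plain CPM in exercised 3-year fish and from 1570 to 103000 in resting 3-year fish. In exercised 1-year fish it ranged from 1010 to 22500 plain CPM and in resting 1-year fish from 178 to 126000. In sat2a.2, described further on, resting 3-year replicate 1 stood with the 1-year fish and resting 1-year replicate 3 stood with the 3-year fish. Called polyamine genes are also given without these 2 libraries, as a description: the 2 were picked by a gene whose age pattern chose it, so their removal is no independent support for a difference with age. Whether their labels were exchanged was not tested, and an exchange would change all values of the resting groups. In a bulk tissue, fewer cells of a type and less RNA per cell cannot be told apart.

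Apart from the marker sums and FABP2, levels are CPM scaled by TMM, which corrects library totals for the composition of the RNA. Log2 fold changes are from edgeR's quasi-likelihood test with Benjamini-Hochberg adjustment over 18079 genes, and a gene was called at an adjusted p under 0.05. Standard errors (SE) of these fold changes are approximate: the size of the log2 fold change was divided by the square root of its F statistic. The comparisons share groups with each other, so their results are not independent.

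Per gene length, the polyamine genes differed widely in level. SAT1 (ENSDARG00000035652) was the highest, with a median over the 20 libraries of 63.0 CPM per kilobase. It was followed by sat2a.2 with a median of 16, which lies between its high and low libraries, SAT1 (ENSDARG00000095908) with 11.5 and SAT1 (ENSDARG00000032272) with 5.55. SMS, SRM and AMD1 had neighbouring medians of 2.31, 2.28 and 2.03, and their ranges over libraries overlapped. Then came sat2b with 1.75, SMOX with 1.51 and, lowest, ODC1 with 0.835 CPM per kilobase. The acetyltransferase genes thus held most of the transcripts of the set, and the 4 synthesis genes together were low. Their summed level had a median of 7.61 in exercised 3-year fish and 7.07 in resting 3-year fish. In exercised 1-year fish the median was 6.56, and in resting 1-year fish it was 10.3 CPM per kilobase.

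**Figure D1:**
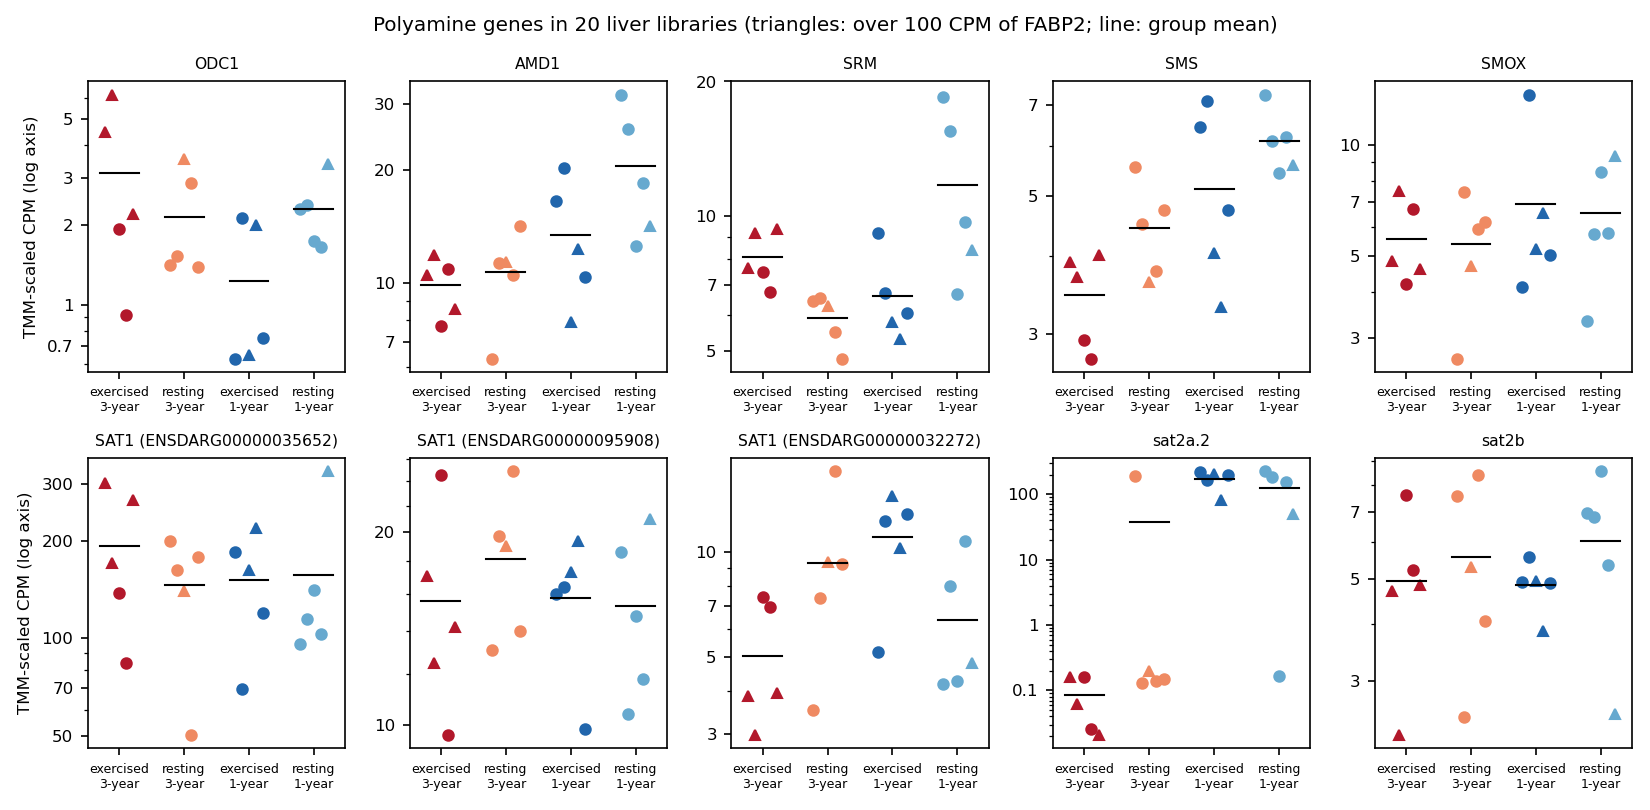
Levels of the 10 polyamine genes in TMM-scaled CPM on log axes, 1 point per library and a line at the group mean; triangles are the 7 libraries with over 100 plain CPM of FABP2. SRM of all resting 3-year fish lay below all resting 1-year fish, and sat2a.2 fell into 2 separate levels, so that its mean in resting 3-year fish, 38.3 CPM, lies where no library is.

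Age was followed first in the enzymes that build spermidine and spermine. AMD1 and SMS were lower in 3-year than in 1-year fish when both exercise states were averaged, and SRM was lower in 3-year fish at rest. AMD1 averaged 10.3 ± 2.27 CPM in 3-year fish and 17.0 ± 7.30 CPM in 1-year fish (SD, n = 10 each), and SMS averaged 3.95 ± 0.83 CPM in 3-year fish and 5.63 ± 1.28 CPM in 1-year fish. In these averages 2 of the 9 genes tested by age fell and none rose, beside 12.4% of all genes called and 6.95% called lower. The median log2 fold change of the 9 was -0.29, against 0.04 over all genes tested. Markers of immune cells moved in the same average: 9 of 15 myeloid markers were called higher and none lower, beside 5.4% of all genes called higher. All 6 lymphocyte markers tested had a log2 fold change above 0, with a median of 1.03. Of the 6, 1 had an unadjusted p under 0.05, beside 4873 of the 18079 genes tested. The 8 lymphocyte markers summed to 31 to 84.5 plain CPM in exercised 3-year fish, 6.4 to 37.1 in resting 3-year fish, 1.48 to 21 in exercised 1-year fish and 2.66 to 73.5 plain CPM in resting 1-year fish. Between resting fish of the 2 ages, where SRM was called, no marker of either list had an unadjusted p under 0.05, beside 3100 of the 18079 genes tested. There 12 of 15 myeloid and 2 of 6 lymphocyte markers had a log2 fold change above 0, with medians of 0.40 and -0.13. In the same comparison the median log2 fold change was -1.85 for 15 intestine, -0.77 for 18 pancreas and 0.38 for 15 hepatocyte markers. The part of immune cells or hepatocytes in the levels of AMD1, SMS and SRM was not tested.

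AMD1, the enzyme that supplies the aminopropyl donor, was measured at 10.5, 11.9, 7.71, 10.9 and 8.57 CPM in exercised 3-year fish and at 6.31, 11.3, 11.4, 10.5 and 14.2 CPM in resting 3-year fish. At 1 year AMD1 was at 16.5, 20.2, 7.91, 12.3 and 10.4 CPM in exercised fish and at 31.7, 25.7, 12.6, 18.5 and 14.2 CPM in resting fish. The ages overlapped, and the highest 1-year fish were above all 3-year fish. Averaged over both exercise states AMD1 fell by 0.69 ± 0.20 on the log2 scale (SE, adjusted p = 0.0302). The call was lost when single libraries were left out: the adjusted p was 0.0651 and 0.0592 without resting 1-year replicates 1 and 2, 0.0559 and 0.0509 without exercised 1-year replicates 1 and 2, and 0.0526 without exercised 3-year replicate 3. Without the 7 libraries with intestinal reads the log2 fold change was -0.96 (adjusted p = 0.0466), and without the 2 libraries that stood with the other age it was -0.68 (adjusted p = 0.0233). Among resting fish alone the difference was -0.93 ± 0.28 and was not called (adjusted p = 0.0757).

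SMS, which turns spermidine into spermine, was measured at 3.91, 3.71, 2.94, 2.74 and 4.01 CPM in exercised 3-year fish and at 5.55, 4.51, 3.63, 3.79 and 4.75 CPM in resting 3-year fish. At 1 year SMS was at 6.45, 7.08, 4.05, 3.32 and 4.75 CPM in exercised fish and at 7.26, 6.12, 5.43, 6.22 and 5.6 CPM in resting fish. Resting 1-year fish were nearly all above the 3-year fish, while exercised 1-year fish spread over both. SMS fell by 0.51 ± 0.14 on the log2 scale over both exercise states (SE, adjusted p = 0.0214), and every fit that left out a single library kept the call, with log2 fold changes between -0.58 and -0.47. Without the 7 libraries with intestinal reads the log2 fold change was -0.81 (adjusted p = 0.0111). Without the 2 libraries that stood with the other age the log2 fold change was -0.58 (adjusted p = 0.0151). Within exercised fish the difference was -0.57 ± 0.20 (adjusted p = 0.0779) and within resting fish -0.46 ± 0.20 (adjusted p = 0.224), neither called.

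SRM, the spermidine synthase, was measured at 7.64, 9.18, 7.52, 6.75 and 9.37 CPM in exercised 3-year fish and at 6.47, 6.57, 6.30, 5.51 and 4.80 CPM in resting 3-year fish. The 1-year fish had 9.18, 6.73, 5.80, 5.30 and 6.06 CPM of SRM when exercised and 18.5, 15.5, 6.71, 9.71 and 8.42 CPM at rest. Every resting 3-year fish was thus below every resting 1-year fish, and every exercised 3-year fish was above every resting 3-year fish. Over all genes tested, 2.26% lay wholly lower in resting 3-year than in resting 1-year fish, and 1.33% lay wholly higher in exercised than in resting 3-year fish. At rest SRM fell by 0.99 ± 0.23 on the log2 scale with age (SE, adjusted p = 0.0259). It was the 1 gene called of 9 in that comparison, beside 3.50% of all genes called and 2.26% called lower. The fold change stayed between -1.14 and -0.76 when single libraries were left out. The call was lost at an adjusted p of 0.0914 and 0.0860 without resting 1-year replicates 1 and 2, and of 0.0515, 0.0549 and 0.0676 without resting 3-year replicates 3, 4 and 5. Without the 7 libraries with intestinal reads the log2 fold change was -1.13 (adjusted p = 0.0632), and without the 2 libraries that stood with the other age it was -1.17 (adjusted p = 0.0109). Among exercised fish the log2 fold change of SRM with age was 0.29 ± 0.23 (adjusted p = 0.457). The calls of SRM, AMD1 and SMS with age held with the mean log2 CPM of the intestinal or of the pancreas markers as a covariate. The log2 fold changes were then -0.98 for SRM, -0.69 to -0.65 for AMD1 and -0.51 to -0.48 for SMS.

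The exercise comparison of SRM had opposite signs at the 2 ages. SRM averaged 6.61 ± 1.52 CPM in exercised and 11.8 ± 4.99 CPM in resting 1-year fish, a log2 fold change of -0.83 ± 0.23 (SE) that was not called (adjusted p = 0.0632). It was called without exercised 1-year replicate 1 (adjusted p = 0.0492), without resting 1-year replicate 3 (0.0257) and without resting 1-year replicate 5 (0.0441). The other fits that left out 1 of the 20 libraries did not call it, with adjusted p up to 0.194. Over all 20 such fits the log2 fold change was between -0.98 and -0.61. Over all 32 alternatives, which include other tools, filters and sets of libraries, it was between -0.98 and -0.50. The adjusted p was then between 0.0134 and 0.386, and 6 of the 32 called SRM. At 3 years SRM averaged 8.09 ± 1.14 CPM in exercised and 5.93 ± 0.758 CPM in resting fish, a log2 fold change of 0.45 ± 0.23 (adjusted p = 0.341). The difference between the 2 exercise effects, 3-year minus 1-year, was 1.28 ± 0.33 on the log2 scale and was not called (adjusted p = 0.0818). It was called without resting 1-year replicate 3 (1.43, adjusted p = 0.0292) and without both libraries that stood with the other age (1.46, adjusted p = 0.0471). The other fits that left out 1 of the 20 libraries did not call this difference, with adjusted p up to 0.175. Over all 31 alternatives the difference was between 1.02 and 1.46, with adjusted p between 0.0106 and 0.434. Of the 31, 3 called it.

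ODC1, the rate-limiting enzyme, had few reads and a wide spread. It was measured at 4.47, 6.19, 1.93, 0.921 and 2.21 CPM in exercised 3-year fish and at 1.42, 1.53, 3.56, 2.88 and 1.39 CPM in resting 3-year fish. The 1-year fish had 0.630, 2.13, 0.648, 2.01 and 0.754 CPM of ODC1 when exercised and 2.30, 2.38, 1.75, 1.66 and 3.41 CPM at rest. The groups overlapped in every comparison. The largest difference lay between exercised fish, where 3-year fish averaged 3.14 ± 2.14 CPM and 1-year fish 1.24 ± 0.767 CPM, a log2 fold change of 1.34 ± 0.49 that was not called (adjusted p = 0.0910). It was called in 1 of the 20 fits that left out a single library, without exercised 3-year replicate 4 (1.57, adjusted p = 0.0473). In the others the adjusted p was up to 0.254. The median of ODC1 was 3.41 CPM (0.648 to 6.19) in the 7 libraries with intestinal reads and 1.66 CPM (0.630 to 2.88) in the other 13. Without those 7 libraries, which leaves 2 exercised 3-year and 3 exercised 1-year fish, the log2 fold change was 0.21 (adjusted p = 0.876). With the mean log2 CPM of the intestinal markers as a covariate the log2 fold change was 0.95 (adjusted p = 0.154). What part the intestinal reads had in the level of ODC1 was not tested.

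**Figure D2:**
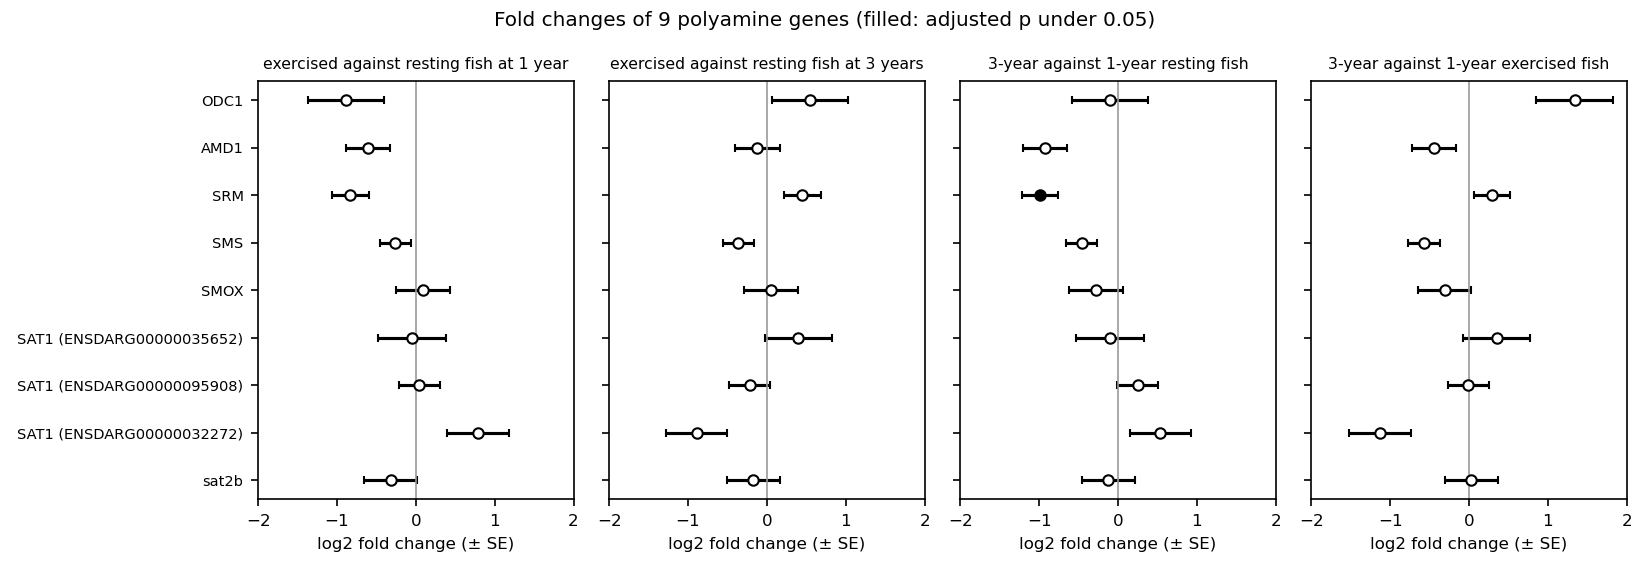
Log2 fold changes (points) with approximate standard errors (bars, derived from the F statistic) of 9 polyamine genes in 4 comparisons from the edgeR fit to 20 libraries. Filled points have an adjusted p under 0.05. Only SRM in 3-year against 1-year resting fish is filled, at -0.99, and sat2a.2 is left out because its age values chose it.

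Exercise moved no polyamine gene past the threshold at either age. In exercised against resting fish at 1 year, edgeR called 0 of the 10 genes, beside 2.85% of all genes. Of the 10, 2 had an unadjusted p under 0.05 (SRM and AMD1), beside 2677 of the 18079 genes tested. In that comparison limma-voom called none of the 10 and DESeq2 called 1, SRM, beside 6.6% of all genes. AMD1 averaged 13.5 ± 4.91 CPM in exercised and 20.5 ± 8.04 CPM in resting 1-year fish, a log2 fold change of -0.61 ± 0.28 (adjusted p = 0.318). The median log2 fold change of the 10 genes at 1 year was -0.15, against -0.04 over all genes tested. In exercised against resting fish at 3 years, edgeR called 0 of 10 genes, beside 0% of all genes, of which 2952 had an unadjusted p under 0.05. DESeq2 called 629 genes there (3.48%) and limma-voom 0. Of the 10, 2 had an unadjusted p under 0.05 (sat2a.2 and SAT1 (ENSDARG00000032272)), and DESeq2 called sat2a.2 alone. The exercise comparisons that include 3-year fish use the values of sat2a.2 that chose it. Its p-values and calls in them are therefore descriptions and count for no response to exercise. With both ages averaged, edgeR called 0 of 10 genes beside 1.95% of all genes, and DESeq2 called sat2a.2, beside 6.47% of all genes. In this average 2 of the 10 had an unadjusted p under 0.05 (SMS and sat2a.2), beside 2978 of the 18079 genes tested. For SMS this average was a log2 fold change of -0.31 ± 0.14 (adjusted p = 0.274). For the difference of the exercise effects between ages, edgeR called 0 of 10 genes beside 0.979% of all genes. An unadjusted p under 0.05 was found for 4 of the 10 (ODC1, SRM, SAT1 (ENSDARG00000032272) and sat2a.2), beside 2625 of the 18079 genes tested. DESeq2 called SRM and sat2a.2 for that difference, beside 3.76% of all genes, and limma-voom called none of the 10 there or in the average. Without resting 3-year replicate 1 the fitted values of sat2a.2 were -0.18 for the average exercise effect and -1.35 for the difference. In 3-year against 1-year exercised fish edgeR called 0 of 9 beside 9.17% of all genes. Of the 9, 3 had an unadjusted p under 0.05 (ODC1, SMS and SAT1 (ENSDARG00000032272)), beside 4583 of the 18079 genes tested. DESeq2 called all 3 of these, beside 16.7% of all genes, and limma-voom called none of them.

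Of the acetyltransferases, SAT1 (ENSDARG00000035652) was the most abundant per gene length in every library with little sat2a.2, at 38.5% to 88.3% of the sum of the 5 genes. It was measured at 302, 171, 138, 84.0 and 267 CPM in exercised 3-year fish and at 199, 162, 140, 50.2 and 178 CPM in resting 3-year fish. Exercised 1-year fish had 184, 69.5, 162, 219 and 120 CPM, and resting 1-year fish had 95.9, 115, 141, 103 and 328 CPM. The groups overlapped throughout, and no log2 fold change was beyond 0.40 in size in the 4 comparisons of single groups (adjusted p at least 0.626). Libraries with intestinal reads were high, at 140 to 328 CPM with a median of 219, while the other 13 had 50.2 to 199 CPM with a median of 120. What part those reads had in the spread of this gene was not tested.

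SAT1 (ENSDARG00000095908) was the steadiest of the 3. Its groups averaged 15.6 ± 5.7 CPM in exercised 3-year fish, 18.2 ± 4.76 in resting 3-year fish, 15.8 ± 3.56 in exercised 1-year fish and 15.3 ± 4.49 CPM in resting 1-year fish. No fold change was called. SAT1 (ENSDARG00000032272) varied more with the groups, at 3.87, 2.98, 7.46, 6.96 and 3.93 CPM in exercised 3-year fish and 3.53, 7.41, 9.39, 17.1 and 9.23 CPM in resting 3-year fish. Exercised 1-year fish had 5.16, 12.3, 14.5, 10.3 and 12.9 CPM of it, and resting 1-year fish had 4.18, 7.98, 4.27, 10.8 and 4.80 CPM. Its mean was lower in exercised than in resting fish at 3 years and higher in exercised than in resting fish at 1 year, with overlap at both ages. The log2 fold changes with exercise were -0.89 ± 0.39 at 3 years (adjusted p = 0.273) and 0.79 ± 0.39 at 1 year (adjusted p = 0.364). Their difference was -1.68 ± 0.55 and was not called (adjusted p = 0.181). In exercised fish the difference with age was -1.13 ± 0.39 (adjusted p = 0.0778), and without the 7 libraries with intestinal reads it was -0.56 (adjusted p = 0.672). The 3 SAT1 genes are paralogs, and their counts are uncertain where reads match more than 1 of them.

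The gene sat2a.2 was either abundant or nearly absent. It was at 0.160, 0.0629, 0.158, 0.0256 and 0.0207 CPM in exercised 3-year fish and at 191, 0.132, 0.196, 0.140 and 0.148 CPM in resting 3-year fish. In exercised 1-year fish it was at 216, 167, 203, 80.5 and 200 CPM and in resting 1-year fish at 226, 187, 0.166, 152 and 50 CPM. The 10 low libraries held between 1 and 8 reads each, 47 in all, and the 10 high ones between 2946 and 7530. Of the 10 fish of 3 years, 9 were low, and of the 10 fish of 1 year, 1 was low. No library lay between 0.196 and 50 CPM. With 0.1 CPM added to both, that gap was 169-fold, the widest of all 18079 genes among gaps with at least 3 libraries on each side. This rank is a description as well, since the same values chose the gene. The size of the gap depends on the 0.1 CPM added. Only 4 genes had a gap of 100-fold or more, and the other 3 of them (chia.3, apoea and FABP1 (ENSDARG00000059227)) split the libraries into 7 and 13. The mammalian relative, SAT2, shares the acetyltransferase fold of SAT1 but in mammals prefers the lysine analogue thialysine to polyamines.

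The fitted log2 difference of sat2a.2 with age was -10.96 in exercised and -1.68 in resting fish. These are descriptions, they depend on the prior count added to low libraries, and the value at rest averages libraries of both levels. The exercise effect at 3 years is a description as well, since it uses the same 3-year values. It was -8.78 ± 2.27 (adjusted p = 0.119), rested on resting 3-year replicate 1 and was -0.86 (adjusted p = 0.724) without that library. At 1 year, where resting replicate 3 was low, it was 0.49 ± 1.57 (adjusted p = 0.959). Within the high libraries the level still varied, from 50 CPM in resting 1-year replicate 5 to 226 CPM in resting 1-year replicate 1. The 2 high libraries with the least sat2a.2, exercised 1-year replicate 4 and resting 1-year replicate 5, also held the most FABP2 of the 1-year fish, at 3310 and 3480 plain CPM.

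**Figure D3:**
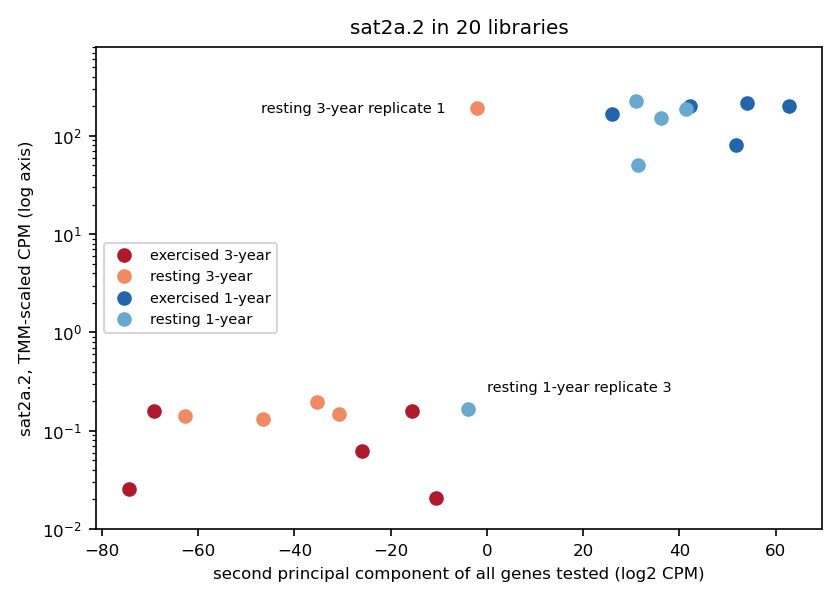
Level of sat2a.2 in TMM-scaled CPM (log axis) against the second principal component of log2 CPM over the 18079 genes tested, 1 point per library. The 10 libraries with 50 CPM or more take the 10 highest places on the component, and the 2 named libraries lie next to each other between the ages, at -2.0 and -3.9.

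The 2 libraries that stood with the other age in sat2a.2 also lay between the other fish of the 2 ages on the second principal component. That component of the 18079 genes held 10.8% of the variance and ordered the libraries mostly by age. Places on other components are not given here. On it, resting 3-year replicate 1 lay at -2.0, the highest of the 3-year fish, and resting 1-year replicate 3 at -3.9, the lowest of the 1-year fish. The other 3-year fish lay between -74.3 and -10.6 and the other 1-year fish between 26.1 and 62.8. The component includes sat2a.2 itself as 1 of its genes.

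The acetyltransferase transcripts as a whole followed sat2a.2. Per gene length, sat2a.2 made up 17.0% to 71.1% of the summed level of the 5 acetyltransferase genes in the 10 high libraries and 0.0105% to 0.165% in the low ones. The sum had a median of 83.5 CPM per kilobase in exercised 3-year fish (48.9 to 143) and 87.9 in resting 3-year fish (54.4 to 220). In exercised 1-year fish the median sum was 196 (158 to 232) and in resting 1-year fish 183 (75.4 to 203). Since sat2a.2 is part of the sum, these values restate its own pattern with age. Without sat2a.2 the medians were 83.4 (48.9 to 143) in exercised 3-year and 87.8 (54.3 to 97.7) in resting 3-year fish. At 1 year they were 92.4 (51.7 to 114) in exercised and 63.7 CPM per kilobase (58.8 to 156) in resting fish. The ranges of the 2 ages overlapped in exercised and in resting fish, and the medians differed in opposite directions. No other acetyltransferase was called higher or lower in 3-year fish.

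**Figure D4:**
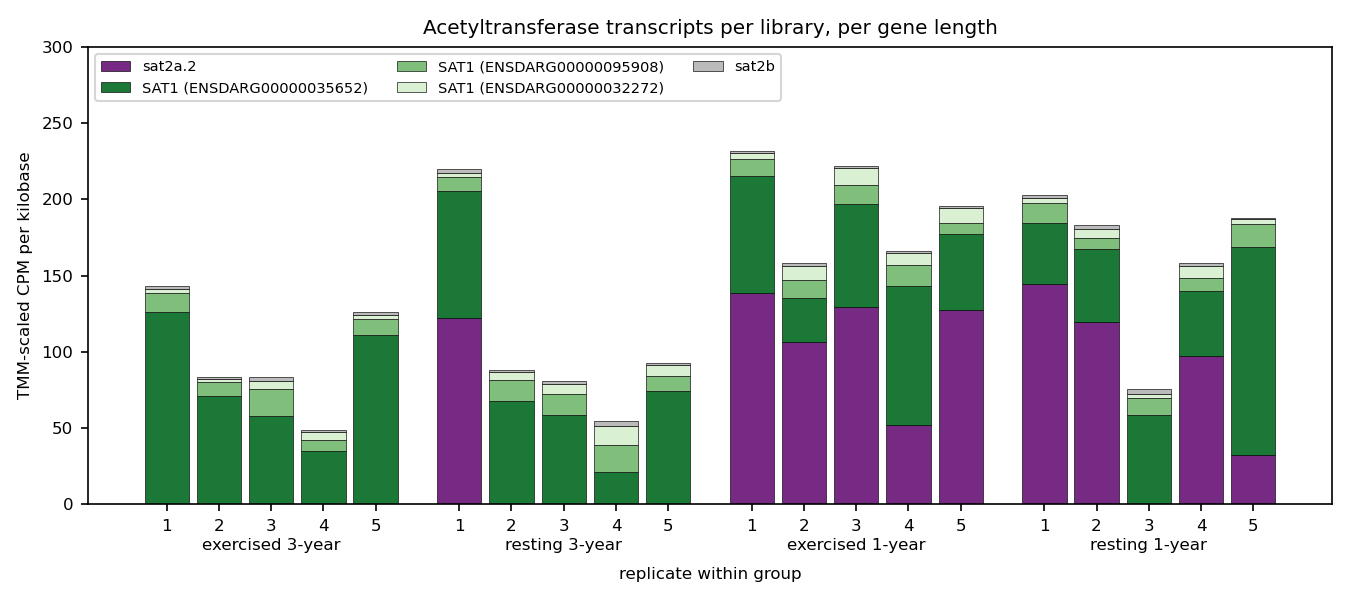
Stacked levels of the 5 acetyltransferase genes in each library, in TMM-scaled CPM per kilobase of gene length, with the segment of sat2a.2 at the bottom. The sat2a.2 segment is visible in 10 libraries, 9 of them from 1-year fish, and there the sum is 158 or more.

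The genes whose levels ran most like sat2a.2 over the 20 libraries were taken by Spearman correlation of CPM. The 8 highest were hsd17b12b, HIBCH, ACLY (ENSDARG00000099079), ndufab1b, cox6a1, SFXN2, AMT and ACAD9, with coefficients of 0.90 to 0.88. ACLY makes cytosolic acetyl-CoA, hsd17b12b elongates long fatty acids, HIBCH acts in valine breakdown and AMT in glycine cleavage. The subunit gene cox6a1 (cytochrome oxidase) and ndufab1b (complex I and mitochondrial fatty acid synthesis) belong to the mitochondrion. None had a gap like that of sat2a.2. For instance, ndufab1b was at 33.4 to 52.4 CPM in the 10 libraries with sat2a.2 and at 17.9 to 29.1 CPM in the 10 without. AMT was at 71.5 to 111 CPM where sat2a.2 was high and at 27.1 to 62.1 CPM where it was low. ACLY overlapped, at 186 to 1800 against 19.7 to 242 CPM. The ranges of hsd17b12b, HIBCH, SFXN2 and ACAD9 overlapped as well, and that of cox6a1 did not. These libraries share age, depth and tissue content, so the coefficients describe the order of the libraries and carry no test. Among the 10 low libraries the order of sat2a.2 rests on 1 to 8 reads each. That part of the ranking thus carries much counting error. By Pearson correlation of log2 levels the first was PCCA (propionyl-CoA carboxylase, 0.94), and 2 genes, HIBCH and AMT, were among the first 8 of both measures.

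None of the neighbours of sat2a.2 on its chromosome had so wide a gap, though zpax4 parted the same libraries without overlap. In the RefSeq gene order of assembly GRCz12tu, a later build than that of the files, the 4 genes before it are zpax4, si:dkey-19b23.7, si:dkey-19b23.8 and sat2a.1. The 4 genes after it are tnfsf12, chd3, cyb5d1 and dnajc3b. SAT2 (ENSDARG00000075140), the Ensembl gene that matched sat2a.1 without its suffix, was at 0.198 to 1.99 CPM in the 10 libraries with abundant sat2a.2 and at 0.506 to 1.58 CPM in the 10 with little. The gene zpax4 ran most like sat2a.2 among them (Spearman 0.84 over 20 libraries). It was at a low level of 0.660 to 3.67 CPM where sat2a.2 was abundant and 0.0256 to 0.569 CPM where sat2a.2 was nearly absent. These ranges lay close together but did not overlap. Resting 3-year replicate 1 had 0.661 CPM of zpax4 and resting 1-year replicate 3 had 0.471 CPM. The gene zpax4 thus placed both libraries with the other age as well. Its level was lower at 3 years than at 1 year in exercised fish (0.154 ± 0.096 against 1.97 ± 1.11 CPM, SD, n = 5 each), with a log2 fold change of -3.63 ± 0.58 (SE, adjusted p = 0.00157). Averaged over both exercise states its log2 fold change with age was -2.43 ± 0.39 (adjusted p = 0.000872), and -2.64 without the 2 libraries that stood with the other age. The call held in all alternatives, but its size did not: in exercised fish the log2 fold change was -5.02 without the 7 libraries with intestinal reads and -0.64 and -0.58 on the log2 scale of deposited and rescaled RPKM with a pseudocount, and in the average it was -0.43 and -0.38 on those scales. Like those of sat2a.2, these fitted values rest on few reads in 3-year fish. The gene zpax4 is set out here because it followed sat2a.2, which was chosen by its age pattern. Its values with age are therefore a description and no independent support. Coefficients of the other neighbours were between -0.36 (CHD3) and 0.35 (si:dkey-19b23.8). Of these, si:dkey-19b23.8 was called lower in 3-year than in 1-year exercised fish (-2.75 ± 0.80, adjusted p = 0.0385, a call lost in 12 of 32 alternatives) and lower with exercise over both ages (-2.83 ± 0.57, adjusted p = 0.0184). The gene dnajc3b, a chaperone partner of the endoplasmic reticulum, was called lower with exercise at 1 year (-1.90 ± 0.31, adjusted p = 0.00424) and lower with age at rest (-1.30 ± 0.31, adjusted p = 0.0256, lost in 7 of 32 alternatives). Its exercise effect was higher at 3 years than at 1 year by 2.29 ± 0.44 on the log2 scale (adjusted p = 0.0189). Beside these calls, edgeR called 9.17% of all genes with age in exercised fish, 12.4% with age averaged and 3.5% with age at rest. For exercise it called 2.85% at 1 year, 1.95% over both ages and 0.979% for the difference of the effects.

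The remaining acetyltransferase and the spermine oxidase did not pass the threshold in any comparison. The gene sat2b averaged 4.94 ± 1.89 CPM in exercised 3-year fish, 5.57 ± 2.44 in resting 3-year fish, 4.84 ± 0.616 in exercised 1-year fish and 6.04 ± 2.26 CPM in resting 1-year fish. SMOX averaged 5.58 ± 1.45 CPM in exercised 3-year fish, 5.39 ± 1.82 in resting 3-year fish, 6.94 ± 3.89 in exercised 1-year fish and 6.53 ± 2.4 CPM in resting 1-year fish. Its highest value, 13.7 CPM, was in exercised 1-year replicate 2. The 4 log2 fold changes of SMOX between single groups lay between -0.31 and 0.09, each with a standard error of 0.34, and those of sat2b between -0.32 and 0.03 with the same error.

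Around these 10 genes, 43 other genes of polyamine supply, control, transport, use and breakdown were tested. Averaged over both exercise states, 9 of the 43 were called with age, 7 lower and 2 higher in 3-year fish, beside 12.4% of all genes called, 6.95% lower and 5.4% higher. Several genes listed with precursor supply or methionine salvage were among the lower ones. Their levels do not tell how much ornithine reached ornithine decarboxylase. OAT, an aminotransferase of ornithine, averaged 50.4 ± 16.5 CPM in exercised and 35.3 ± 21.8 CPM in resting 3-year fish (SD, n = 5 each). At 1 year OAT averaged 134 ± 46.5 CPM in exercised and 117 ± 49.0 CPM in resting fish. Its log2 fold change with age was -1.57 ± 0.29 (SE, adjusted p = 0.00241). MAT1A, the liver enzyme that makes S-adenosylmethionine, fell by 0.94 ± 0.23 on the log2 scale (adjusted p = 0.0124). AGMAT, which can make putrescine from agmatine, fell by 0.74 ± 0.21 (adjusted p = 0.0272), and GOT1, an aminotransferase listed with methionine salvage, fell by 1.62 ± 0.29 (adjusted p = 0.00173). Of 8 precursor supply genes 3 thus fell and none rose, and of 6 salvage genes 1 fell, counts too small to set against the 6.95% of all genes called lower. AGMAT lost its call without exercised 1-year replicate 1, resting 1-year replicate 2 or resting 3-year replicates 3 or 5 (adjusted p between 0.0506 and 0.0531). OAT, MAT1A and GOT1 kept theirs in all 31 alternatives.

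AZIN1 (ENSDARG00000035869), an inhibitor of the antizymes that destroy ornithine decarboxylase, fell by 0.56 ± 0.15 on the log2 scale with age (adjusted p = 0.0223), the 1 call among 6 antizyme and inhibitor genes. Counts in this and the next lists are too small to set against the 6.95% of all genes called lower. It averaged 294 ± 88.1 CPM in exercised 3-year, 304 ± 61.8 in resting 3-year, 512 ± 110 in exercised 1-year and 378 ± 64.4 CPM in resting 1-year fish. Of 9 transport genes 1 fell: atp13a3, whose mammalian relative takes up polyamines, by 1.06 ± 0.29 (adjusted p = 0.0216, or 0.125 without the 7 libraries with intestinal reads). None of the 4 genes of the hypusine pathway, which moves part of spermidine onto the translation factor eIF5A, was called. Among 4 genes of other breakdown, ALDH7A1 fell by 0.59 ± 0.19 with an adjusted p of 0.0484, a call lost in 15 of the 20 fits that left out a single library (adjusted p up to 0.0953) and kept only without resting 1-year replicates 3 or 5, exercised 1-year replicate 4, resting 3-year replicate 1 or exercised 3-year replicate 3.

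Of 6 transcription factor genes (of the MYC, MAX and Nrf2 kinds), 2 were called higher in 3-year fish with both exercise states averaged, and none lower. These counts are too small to set against the 5.4% of all genes called higher and 6.95% called lower. NFE2L2 (Nrf2), which in mammals drives SAT1 among many stress genes, averaged 114 ± 27.5 CPM in exercised 3-year and 104 ± 19.5 in resting 3-year fish. The means were 57.8 ± 11.4 CPM in exercised 1-year fish and 75.3 ± 12.9 CPM in resting 1-year fish (SD, n = 5 each). Its rise with age was 0.72 ± 0.13 on the log2 scale (SE, adjusted p = 0.00214). MYC (ENSDARG00000045695), which in mammals drives ODC1, rose by 1.15 ± 0.30 (adjusted p = 0.0172, or 0.0566 without the 7 libraries with intestinal reads). Its level was low, 1.64 ± 0.366 CPM in exercised 3-year, 1.31 ± 0.516 in resting 3-year, 0.485 ± 0.206 in exercised 1-year and 0.890 ± 0.612 CPM in resting 1-year fish. The 17 markers of macrophages and other myeloid cells summed to 797 to 2140 plain CPM in exercised 3-year fish, 205 to 847 in resting 3-year, 111 to 520 in exercised 1-year and 174 to 855 in resting 1-year fish. At least 1 read of each of the 17 was counted in every group, except for an MPEG1 copy in resting 3-year fish. The part of myeloid cells in the levels of NFE2L2 and MYC was not tested.

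ATP13A2, a lysosomal polyamine exporter in mammals, was the 1 gene of the 43 called for a difference of the exercise effects between the ages. Of all genes, 0.979% were called for that difference. It was at 13.2, 10.4, 9.16, 13.2 and 11.3 CPM in exercised 3-year fish and at 7.76, 9.23, 8.93, 7.16 and 8.83 CPM in resting 3-year fish. At 1 year ATP13A2 was at 7.56, 8.03, 7.5, 8.61 and 7.06 CPM in exercised fish and at 9.79, 10.8, 11.6, 15.8 and 12.4 CPM in resting fish. All exercised 1-year fish were below all resting 1-year fish, which held for 2.31% of all genes tested. At 3 years the exercised fish were higher, except that the lowest of them lay just below the highest resting fish. The difference of the exercise effects was 1.09 ± 0.20 on the log2 scale (SE, adjusted p = 0.0146). Exercised 1-year fish were lower than resting 1-year fish by a log2 fold change of -0.64 ± 0.14 (adjusted p = 0.0178), and this was not called without resting 1-year replicate 4 (-0.53, adjusted p = 0.0513). Without the 7 libraries with intestinal reads the difference of the effects was 1.07 and was not called (adjusted p = 0.203). Without the 2 libraries that stood with the other age it was 1.08 (adjusted p = 0.0344).

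**Figure D5:**
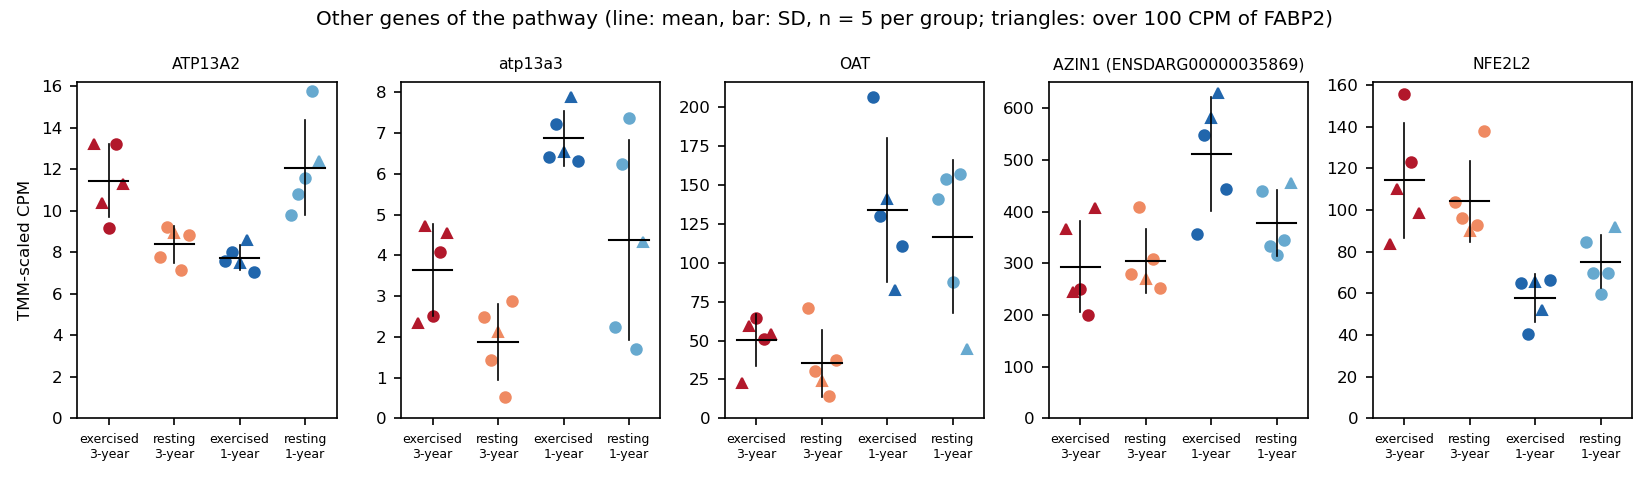
TMM-scaled CPM of 5 other genes of the pathway, 1 point per library, with the group mean (line) and SD (bar, n = 5); triangles are libraries with over 100 plain CPM of FABP2. ATP13A2 is low in resting 3-year and exercised 1-year fish, at means of 8.38 and 7.75 CPM, while the group means of OAT are lower and those of NFE2L2 higher in 3-year than in 1-year fish, with overlap of single libraries.

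In the single comparisons fewer of the 43 were called. The counts were 4 in 3-year against 1-year resting fish (OAT, KYAT1, GOT1 and ATP13A2, all lower), beside 3.50% of all genes, and 8 in 3-year against 1-year exercised fish, beside 9.17%. Among exercised fish, AZIN1 (ENSDARG00000035869), OAT, AHCY, GOT1 and ALDH7A1 were lower at 3 years, and ATP13A2, MYC (ENSDARG00000045695) and NFE2L2 were higher. NFE2L2 kept its call there in all 32 alternatives. The other calls of these 2 comparisons were each lost in 2 to 19 of 32 alternatives. MYC (ENSDARG00000045695) lost its call least often and ALDH7A1 most often, and ATP13A2 at rest lost it in 17. With the 7 intestinal libraries left out, 2 genes were called among resting and 1 among exercised fish. That fit keeps 4 resting fish of each age, 2 exercised 3-year and 3 exercised 1-year fish. The share of all genes called in it is not given here. Whether fewer fish or the loss of intestinal reads lowered the counts was not tested. Exercise alone gave 1 call of the 43 at 1 year, ATP13A2, beside 2.85% of all genes. At 3 years edgeR called none of the 43, beside 0% of all genes, and DESeq2 called 3, beside 3.48%.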

How the data were processed

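Messenger RNA of 20 zebrafish livers was read as whole-number counts per gene, deposited by the authors without normalization. The submitters' processing notes name build GRCz10 and, without roles, featureCounts 1.4.6-p4, STAR 2.4.1d and bcl2fastq 1.8.4. Per the labels' protocols the kit was TruSeq v2, which does not mark strand, so overlapping and antisense genes cannot be separated; the labels do not say how reads shared by paralogs were counted. RPKM deposited by the authors were divided by totals of other libraries (errors up to 0.585 on the log2 scale) and served only for gene lengths and as an alternative. Of 32105 genes, 81.82% matched a symbol.

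Counts were fitted with edgeR 4.0.16 (R 4.3.3): filterByExpr on the 4 groups (18079 genes), TMM, 4 group means over 20 samples, no covariate, 7 contrasts, glmQLFTest, Benjamini-Hochberg adjustment over all genes. Total counts of at least 33046127 leave counting error small except for genes with few reads, such as sat2a.2 in its low libraries. Alternatives used limma 3.58.1, DESeq2 1.42.0, other filters, and fewer libraries. Named genes were all 10 members, called members of 7 pathway lists, and the nearest and most similar genes of sat2a.2. Members and lists were chosen with earlier results of these data known. The choice to leave out 2 libraries together was made after seeing the data.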

Additional observations from a re-analysis of the deposited data

Results flagged for a closer look

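On the scale of log2(CPM + 0.1), Dixon's ratio (the gap of the highest or lowest library to its neighbour, over the range of the group) was above the 95% critical value of 0.71 in 2 of 36 groups of 5, taking the 9 genes other than sat2a.2. Chance gives about 1 in 20 such groups. Both were low values of SAT1. SAT1 (ENSDARG00000035652) was at 50.2 CPM in resting 3-year replicate 4, against 140 to 199 CPM in the others, with a ratio of 0.743 on the log2 scale and 0.602 on the CPM scale. SAT1 (ENSDARG00000095908) was at 9.86 CPM in exercised 1-year replicate 5, against 16 to 19.4 CPM in the others, with a ratio of 0.712 on the log2 scale and 0.641 on the CPM scale, so that neither passed without the logarithm. For sat2a.2 the same ratio is a description only, since its values by age chose the gene. The gene was at 191 CPM in resting 3-year replicate 1, where the others had 0.132 to 0.196 CPM. It was at 0.166 CPM in resting 1-year replicate 3, where the others had 50 to 226 CPM. In exercised 1-year replicate 4 it was at 80.5 CPM, where the others had 167 to 216 CPM. In that order the ratios were 0.964, 0.777 and 0.735 on the log2 scale and 1, 0.221 and 0.633 on the CPM scale. Without the logarithm only the first passed.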

How the results depend on the processing

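No paired analysis was possible because the replicate numbers follow the order of the samples and mark nothing that groups share. The counts of polyamine genes called were small and moved with the settings. DESeq2 called 1 gene in place of 0 in each single exercise comparison and in their average, 2 in place of 1 with age at rest, 3 in place of 0 with age in exercised fish, and 2 in place of 0 for the difference of the exercise effects. Of these, sat2a.2 was the gene with exercise at 3 years and in the average, and 1 of the 2 for the difference. Its values there are a description. Of all genes, DESeq2 called 6.6% with exercise at 1 year, 3.48% at 3 years and 6.47% in their average. It called 8.25% with age at rest, 16.7% with age in exercised fish and 3.76% for the difference. For the counts of polyamine genes in the other fits below, the share of all genes called is not given here. A filter of 1 CPM in 5 libraries gave 1 in place of 0 for exercise at 1 year. Limma-trend on deposited and on rescaled RPKM gave 0 in place of 1 with age at rest and 0 in place of 2 with both states averaged. With age at rest the count was also 0 when only those groups were fitted. Without the 7 libraries with intestinal reads it was 0 with age at rest and 1 in place of 0 with age in exercised fish. Without both libraries that stood with the other age in sat2a.2 it was 1 in place of 0 for exercise at 1 year and for the difference of the effects, SRM each time. Leaving out single libraries gave 0 to 1 for exercise at 1 year, 0 to 2 with age at rest, 0 to 1 with age in exercised fish, 1 to 2 with age averaged and 0 to 1 for the difference of the effects. The average exercise effect of sat2a.2, -4.14 and not called, turned to 0.10 on deposited and 0.11 on rescaled RPKM and was -0.18 without resting 3-year replicate 1. Libraries with sat2a.2 at or under 0.1 CPM numbered 3, and 10 at or under 0.5 CPM. The causes were not tested. Of the other pathway genes, 8 called with age in exercised fish became 13 by DESeq2, beside 9.17% and 16.7% of all genes. The limits are 5 samples a group, intestinal reads in 7 libraries, pancreas reads of widely varying level in these and others, and few reads for ODC1.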
